A study of Mus musculus with 8 samples.

Results

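The epididymal fat of obese mice given telmisartan was compared with that of lean mice on chow, using 4 of the 8 arrays of the series, 2 per group. The arrays were chosen by the group named in their titles. Each array carried total RNA of the visceral fat pad beside the testis from a single male C57BL/6J mouse, bought at 6 weeks of age. For 24 weeks fat supplied 10% of the calories of the chow mice and 30% of those of the telmisartan mice, which were on a high-fat diet (HFD) and then drank telmisartan with their water, at about 3 mg/kg/day, for 5 more weeks. A further 2 mice on HFD without drug served to tell which changes of obesity remained under telmisartan. Another 2 mice on HFD with candesartan added to the estimate of the spread, and their signals are given for some genes called with telmisartan only. The groups compared differ in both diet and drug, and no chow group with telmisartan was analysed here, so the effects of diet and drug cannot be told apart in this comparison alone. Both comparisons with chow use the same 2 chow arrays.

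Fat that expands on a rich diet fills with macrophages, which take up lipid and debris of dying fat cells and carry the integrin CD11c, while the macrophages that reside in lean fat carry scavenger receptors and lectins. Fat cells of obese animals make less of the insulin-responsive glucose transporter GLUT4 and of the enzymes of fatty acid synthesis. Telmisartan blocks the angiotensin II type 1 receptor and is also known as a partial agonist of PPARγ, the master regulator of fat cells.

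All 8 arrays gave a linear signal for each probe set, and signals below are those signals after scaling every array to a common 2%-trimmed mean. The ratio of 3' to 5' signal of actin was 1.18 to 1.22 on the 8 arrays. That of Gapdh was 0.77 on telmisartan array 2 and 0.70 to 0.73 on the other 7 arrays. Telmisartan array 2 also had the lowest trimmed mean before scaling (178.4). Genes at least 2-fold from the chow mean numbered 1124 on telmisartan array 2 and 643 on telmisartan array 1. The median scaled signal was 33.3 on telmisartan array 1 and 40.1 to 48.8 on the other 7 arrays, and 22.4% of its values lay at the floor, the signal of 6.69 to which lower values were set, against 18.6% to 21.2% on the others. Between the arrays of a pair, log2 differences had an SD of 0.48 for telmisartan, 0.44 for chow and 0.27 for HFD. Of 24 pan macrophage and 17 adipocyte markers measured, all were bright enough to be tested, while 0 of the 13 markers of epididymis and testis measured were. The fat pad is a mixed tissue, and more cells of a type cannot be told apart from more RNA per cell.

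Obese fat under telmisartan differed from lean fat in 948 of 11232 genes (8.44%). Most of these were also called in HFD without drug against chow, but that majority depends on the processing. Without the filter on brightness, 142 of 332 genes called were called in both, and with unscaled values 557 of 2045. The majority was also lost when either HFD array was left out. limma called 557 genes higher (4.96%) and 391 lower (3.48%) with telmisartan than with chow, at a Benjamini-Hochberg adjusted p under 0.05. The change was at least 2-fold for 347 of the rises and 166 of the falls. The arrays of both groups did not overlap for any of the 948, against 47.6% of all genes. At the edge of the threshold, Sap30 lay just inside (log2 difference 0.93, adjusted p 0.04997) and Limk1 just outside (−0.85, adjusted p 0.0501). The split of rises and falls depends on the scaling: median centring, which shifts the median difference of all genes from −0.03 to 0.14, gave 637 rises and 83 falls, and unscaled values, which shift it to −0.38, gave 326 and 1719. With only the 4 arrays compared in the fit, 198 genes were called, 167 higher and 31 lower.

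**Figure D1:**
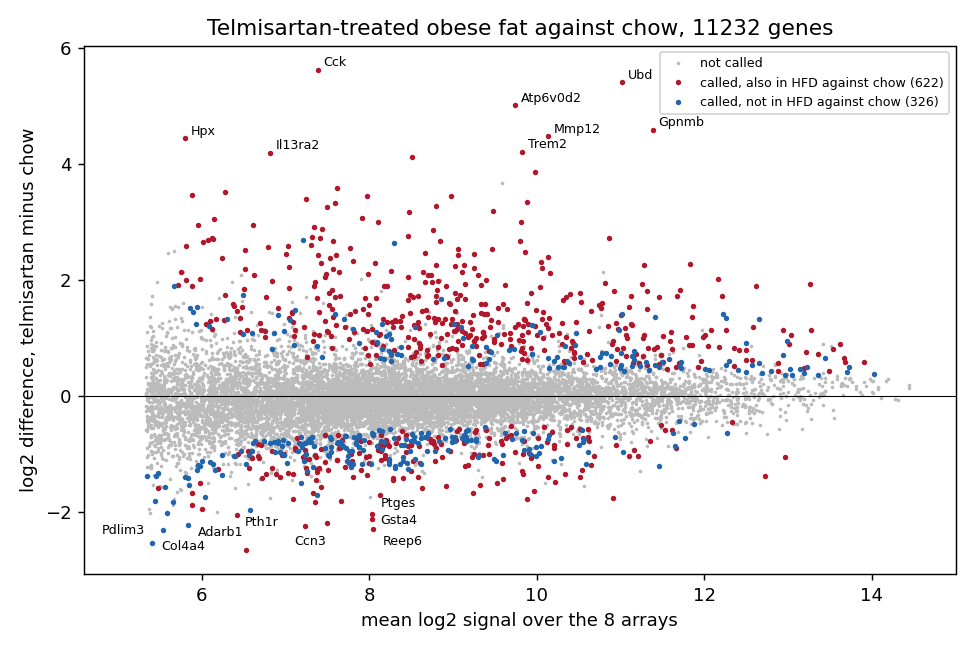
Log2 difference between telmisartan and chow (vertical axis) against the mean log2 signal over the 8 arrays (horizontal axis), 1 point per gene. Red points are the 622 genes also called in HFD against chow, blue points the 326 genes called with telmisartan only, and named points are the genes with the largest changes; the rises reach further from 0 than the falls.

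The diet changes that remained made up 622 genes, 425 higher and 197 lower in both comparisons with chow. They are 68.4% of the 909 genes that limma called in HFD against chow (8.09% of those tested) and 65.6% of those called with telmisartan. Of the 578 diet rises (5.15%), 73.5% were called under telmisartan too, and of the 331 diet falls (2.95%), 59.5%. The number of genes called in both comparisons in opposite directions was 0. Both shares rest on the same chow arrays and are descriptions. The median of the 425 rises was 1.06 above the chow mean on telmisartan array 1 and 1.53 on array 2 (log2), and 1.35 on either HFD array. The median of the 197 falls was −0.86 and −1.11 on the telmisartan arrays and −0.99 and −0.92 on the HFD arrays. Without telmisartan array 1 the number called in both was 1169, and without HFD array 2 it was 161.

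Among the largest remaining rises were genes of the lipid-laden macrophage list and a few outside that list. Which cells of the fat pad held their RNA was not tested. The signal of Ubd, which encodes the ubiquitin-like modifier FAT10, was 126 and 149.5 on the chow arrays, 6079 and 5561 with telmisartan, and 4938 and 4615 with HFD. Its rise with telmisartan was 5.40 on the log2 scale (95% CI 5.11 to 5.69, limma adjusted p 3.57e-07), the smallest adjusted p of the comparison. Cck, the gene of the peptide hormone cholecystokinin, had signals of 3.02 and 10.2 with chow, 295 and 558 with telmisartan, and 598 and 332 with HFD. With 1 chow array at the floor of 6.69, its rise of 5.62 moved between 4.24 and 6.19 over the alternatives tried. Hpx, which encodes the heme scavenger hemopexin, rose from 4.69 and 11.05 to 125 and 279 (log2 4.44, adjusted p 0.00515), also with 1 chow array at the floor, while HFD gave 96.8 and 54.8. Both arrays of telmisartan lay above both of HFD for Hpx, but the difference of 1.36 had an interval of −0.05 to 2.77. Il13ra2, a decoy receptor of interleukin 13, rose by 4.19 (adjusted p 0.00214), with 1 chow array at the floor. Over the alternatives the rise of Hpx lay between 3.11 and 5.02 and that of Il13ra2 between 3.05 and 5.015. The call of Hpx ended without the filter on brightness (adjusted p 0.0667). So did 59 of the 89 calls of named genes, which are not each marked where the gene is described.

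The named falls that remained held 2 glutathione transferases beside genes of other functions. Gsta4, a glutathione transferase that clears lipid aldehydes, had signals of 803 and 694 with chow, 196 and 153 with telmisartan, and 150.2 and 199 with HFD. It fell by 2.11 in both comparisons (adjusted p 0.00127 with telmisartan and 0.00106 with HFD), and the telmisartan minus HFD difference was 0.01 (95% CI −0.44 to 0.45). Gsta3, of the same family, fell by 1.77. Ptges, which makes prostaglandin E2, fell by 2.03. Reep6, an endoplasmic reticulum protein, went from 1017 and 916 to 319 and 123 (fell by 2.29), so the telmisartan arrays lay apart by more than the chow arrays. Eci3, an enoyl-CoA isomerase of fatty acid oxidation, fell by 1.79 and Prodh, which encodes proline dehydrogenase, by 1.78. The calls of Eci3 (adjusted p 0.0532) and Prodh (0.0624) ended without chow array 2, and that of Prodh also without telmisartan array 2 (0.0564). Ccn3, a matricellular protein, fell by 2.24 and Pth1r, the receptor of parathyroid hormone, by 2.05 (95% CI −2.59 to −1.52, adjusted p 0.00223). Of the 8 largest falls of the comparison, 3 were not called with HFD. They are Pdlim3, a cytoskeletal protein that fell by 2.30, Col4a4, a chain of basement membrane collagen that fell by 2.53, and Adarb1, described further on. The HFD changes of Pdlim3 and Col4a4 were −1.13 (adjusted p 0.141) and −2.28 (0.0512). The call of Pdlim3 ended without chow array 2 (adjusted p 0.0751). That of Col4a4 ended without either array of chow, HFD or candesartan and without telmisartan array 2 (adjusted p 0.0540 to 0.129).

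**Figure D2:**
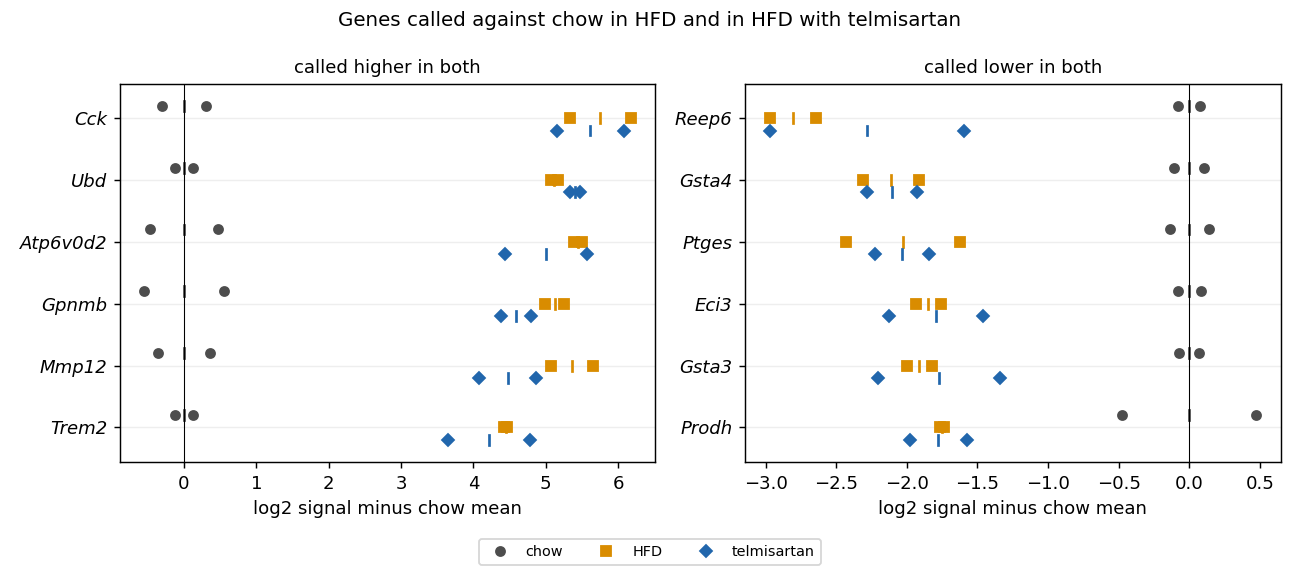
Log2 signal minus the chow mean (horizontal axis) of the 6 rises and 6 falls that remained, ranked by the smaller of each gene's changes in the comparisons with chow, 1 row per gene, 1 symbol per array and a bar at each group mean. The arrays of HFD and telmisartan lie on the same side of chow for all 12 genes, and the signal of Ubd lies between 4615 and 6079 on these 4 arrays.

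Macrophage genes as a group stayed high under telmisartan. The pan macrophage list held 19 rises and 0 falls among 24 genes tested, with a median log2 difference of 1.26, against −0.03 over all genes. Over all genes 4.96% were called higher and 3.48% lower, and the counts of every list are set beside these shares. The lists were chosen with earlier results of these data known, so this is a description and no test. Lists of 15 or more genes with 1 call, such as that of proliferation, lie near these shares. Cd68, an endosomal macrophage protein, had signals of 1106 and 1089 with chow, 4386 and 6415 with telmisartan, and 5401 and 5840 with HFD, a rise of 2.27 (95% CI 1.84 to 2.71, adjusted p 0.000834). Adgre1, which encodes F4/80, had 620.3 and 660.04 with chow and 1743 and 3503 with telmisartan (log2 1.95, adjusted p 0.0063). Lgals3, the lectin galectin 3, rose by 1.93, and Ctss, the lysosomal protease cathepsin S, by 1.89. The telmisartan arrays were unequal: the list median was 0.99 on array 1 and 1.80 on array 2, on either side of HFD (1.38 and 1.48). With 1 array per mouse, a difference between mice cannot be told apart from a difference between arrays. The summed signal of the 24 genes was 36151 and 40176 with chow, 79348 and 116320 with telmisartan, and 90703 and 94425 with HFD. Between 14 and 21 of the 24 rose when 1 array was left out, and 12 with only the 4 arrays compared.

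Genes of lipid-laden macrophages and lysosomes made up 4 of the 8 named genes with the largest rises. Of 19 tested, 13 rose and 0 fell (median 0.60, highest 5.01). Atp6v0d2, part of the pump that acidifies lysosomes, had signals of 40.2 and 76.7 with chow, 1204 and 2643 with telmisartan, and 2327 and 2501 with HFD (log2 5.01, 95% CI 4.13 to 5.89, adjusted p 0.000802). Gpnmb, a transmembrane glycoprotein of phagocytes, had 139.6 and 298 with chow, 4258 and 5649 with telmisartan, and 6483 and 7776 with HFD, a rise of 4.59. Mmp12, the macrophage elastase, had 65.2 and 107 with chow, 1409 and 2442 with telmisartan, and 2805 and 4188 with HFD, a rise of 4.47. Trem2, a lipid-sensing receptor, had 100.03 and 84.3 with chow, 1152 and 2516 with telmisartan, and 2033 and 1972 with HFD, a rise of 4.21. The telmisartan arrays of Trem2 lay on either side of both HFD arrays. For Gpnmb and Mmp12 both telmisartan arrays lay below both HFD arrays, but the differences of −0.53 (95% CI −1.27 to 0.20) and −0.89 (−1.74 to −0.03) had an adjusted p of 0.766 in limma.

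Since these genes moved together, their promoters are shown, from 250 bases before to 50 after the start of transcription (RefSeq, GRCm38.p6), for the 3 risers of the list with the largest changes in the sequence table, which held 11 of the 13. Capitals mark matches on either strand to 4 short motifs searched: the PU.1 core GAGGAA, the E-box CACGTG, the M-box core CATGTG and the AP-1 motif TGANTCA.
Gpnmb, chr6:49036268-49036567, plus strand: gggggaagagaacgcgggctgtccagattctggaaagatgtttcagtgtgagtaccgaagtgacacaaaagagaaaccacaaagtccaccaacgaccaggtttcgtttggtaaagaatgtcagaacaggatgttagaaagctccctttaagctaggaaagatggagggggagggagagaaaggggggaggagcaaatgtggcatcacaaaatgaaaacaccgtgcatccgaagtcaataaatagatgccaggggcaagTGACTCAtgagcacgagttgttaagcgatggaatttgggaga
Mmp12, chr9:7344147-7344446, plus strand: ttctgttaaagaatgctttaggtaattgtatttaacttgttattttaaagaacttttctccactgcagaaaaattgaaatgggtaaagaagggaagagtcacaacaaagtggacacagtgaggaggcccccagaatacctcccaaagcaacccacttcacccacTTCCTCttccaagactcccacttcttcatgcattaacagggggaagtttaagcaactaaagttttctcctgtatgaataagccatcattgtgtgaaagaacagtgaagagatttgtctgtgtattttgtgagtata
Trem2, chr17:48346151-48346450, plus strand: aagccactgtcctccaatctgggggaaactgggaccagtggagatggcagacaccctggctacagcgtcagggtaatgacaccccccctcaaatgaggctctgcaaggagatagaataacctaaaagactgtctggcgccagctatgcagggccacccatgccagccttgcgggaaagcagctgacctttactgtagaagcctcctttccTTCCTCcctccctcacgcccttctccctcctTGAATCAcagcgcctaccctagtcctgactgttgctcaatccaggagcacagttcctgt
Mmp12 and Trem2 each held 1 PU.1 core, read on the opposite strand, 86 and 40 bases before the start, and Trem2 and Gpnmb each held 1 AP-1 motif, 9 bases before and 9 bases after it. Of 27025 promoters of the same length, 28.3% held the PU.1 core, 7.9% the AP-1 motif, 7.2% the E-box and 14.1% the M-box core. A match is a description of the letters and says nothing of binding.

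Of the CD11c and M1 macrophage list, 4 of 10 genes rose and 0 fell (median 1.14). Itgax, which encodes CD11c, had signals of 195 and 217 with chow, 897 and 1469.9 with telmisartan, and 1559.9 and 1987 with HFD. It rose by 2.48 (95% CI 1.90 to 3.06, adjusted p 0.00155), and both telmisartan arrays lay below both HFD arrays (difference −0.62, 95% CI −1.20 to −0.03, adjusted p 0.766). Irf5, a transcription factor of inflammatory macrophages, rose by 1.24, and the chemokine Ccl2 by 0.86 (adjusted p 0.0319). The other of the 2 Irf5 probe sets pointed the other way. The call of Irf5 ended without chow array 1 (adjusted p 0.0717), and that of Ccl2 without chow array 2, either HFD array or either telmisartan array (0.0515 to 0.137). The list held 2 to 7 rises when 1 array was left out, 7 without telmisartan array 1 and 2 without telmisartan array 2, chow array 2 or either HFD array. The classical markers Tnf, Nos2 and Il6 were too dim to be tested, with mean signals of 26.8, 5.00 and 18.2 over the 8 arrays.

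Genes of M2 and resident macrophages went both ways, and more fell than rose. Of 20 tested, 2 rose and 6 fell (median −0.57, and −0.20 and −0.89 on telmisartan arrays 1 and 2, against −0.93 and −0.98 with HFD). Il1rn, the interleukin 1 receptor antagonist, went from 39.4 and 58.1 with chow to 301 and 308 with telmisartan, a rise of 2.67 that equalled that of HFD (2.67). Egr2, a transcription factor, rose by 2.29. Fcna, a lectin of resident macrophages, fell from 1846 and 1862 to 891 and 643 (fell by 1.29, adjusted p 0.00378), and Lyve1, a hyaluronan receptor, by 1.57. Timd4, the phosphatidylserine receptor of resident macrophages, had 75.4 and 85.5 with chow and 30.0 and 31.6 with telmisartan (fell by 1.38). The lectins Cd209f and Cd209g fell by 1.53 and 1.40, and the chemokine Ccl24 by 1.32. Lyve1, Timd4, Cd209f, Cd209g and Ccl24 were named after their values were seen. Of the diet falls of this list, Retnla, Cd163 and Cd209d were not called with telmisartan, as described further on. Mrc1, the mannose receptor, was called in neither comparison with chow (0.72, adjusted p 0.211, with telmisartan and 0.60, adjusted p 0.295, with HFD). Between 2 and 8 of the 20 fell when 1 array was left out: 8 without telmisartan array 1, 2 without telmisartan array 2 or chow array 2, and 3 without any other array.

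Genes of antigen presentation to helper T cells rose in part. Of 9 MHC class II genes, 5 rose and 0 fell (median 0.95), while HFD without drug gave 0 calls (median 0.64). H2-Ab1, a class II chain, had signals of 2576 and 3241 with chow, 5605 and 10543 with telmisartan, and 5313 and 4450.2 with HFD (log2 1.41, adjusted p 0.0162, named after its value was seen). Cd74, the invariant chain, rose by 0.66, H2-Eb1 by 1.33 and H2-DMa, which loads peptides, by 1.23. The difference between telmisartan and HFD was 0.66 for H2-Ab1 (95% CI 0.05 to 1.27), with an adjusted p of 0.766, so a difference between these groups was not shown. The list median was 0.65 on array 1, next to HFD (0.64 and 0.62), and 1.32 on array 2, the higher of the pair. With only the 4 arrays compared, 0 of the 9 genes rose. The list held 2 rises without chow array 1, where H2-Eb1 was at an adjusted p of 0.0596, and 7 without telmisartan array 1. The call of H2-DMa ended without chow array 2 (0.0695).

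Of the interferon list, 2 of 17 genes rose and 0 fell (median 0.21), and both encode subunits of the immunoproteasome. Psmb10, a catalytic subunit that shapes peptides for MHC class I, had signals of 984 and 995 with chow, 2042 and 2158 with telmisartan, and 1406 and 1305 with HFD. It rose by 1.08 (95% CI 0.78 to 1.39, adjusted p 0.00287), and HFD was 0.45 above chow (adjusted p 0.0748). The telmisartan minus HFD difference was 0.63 (95% CI 0.33 to 0.93, adjusted p 0.766). Psmb8 rose by 0.87, a call that ended at every omission of an array except telmisartan array 1 (adjusted p 0.0597 to 0.120), and Psmb9 was at 0.77 (adjusted p 0.153). The list differed between the telmisartan arrays, with a median of −0.43 on array 1 and 0.79 on array 2. Without telmisartan array 1, 10 of its 17 genes rose.

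Fewer than 1 in 2 members of the lymphocyte lists rose, and mast cell and neutrophil genes were not called. Of 7 B cell genes, 2 rose and 0 fell (median 1.45): Blnk, which links that receptor to its signalling, from 302 and 292 to 1284 and 1915 (log2 2.40, adjusted p 0.00121), and Cd22 by 2.38. Ighm, the IgM heavy chain, was at 0.87 (adjusted p 0.069), and Cd79a, Cd79b, Ms4a1 and Jchain were not called either. Of 8 T and NK cell genes, 3 rose and 0 fell (median 1.004): the interleukin 7 receptor Il7r by 3.45, and the cytotoxic cell genes Nkg7 by 1.74 and Klrd1 by 1.07. The other members tested, Cd2, Cd3d, Cd3g, Cd8a and Gzma, were not called. The call of Cd22 ended without chow array 1 (adjusted p 0.0685). Those of Nkg7 and Klrd1 ended without chow array 1, either HFD array or telmisartan array 2 (0.0569 to 0.102), and that of Klrd1 also without telmisartan array 1 or either candesartan array. Of 6 mast cell genes 0 were called (median −0.04; −0.36 and 0.43 on telmisartan arrays 1 and 2), and of 4 neutrophil genes 0 (median 0.14, S100a8 at 1.07 with adjusted p 0.069).

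In the whole fat pad, the GLUT4 gene and key genes of fatty acid synthesis stayed low, while the main adipocyte products were not called. Which cells held this RNA was not tested. Slc2a4, which encodes GLUT4, had signals of 1615 and 1673 with chow, 757 and 449 with telmisartan, and 467 and 546 with HFD. It fell by 1.495 (95% CI −2.05 to −0.94, adjusted p 0.00901). Adipoq, which encodes adiponectin, had 15423 and 17415 with chow and 18324 and 15764 with telmisartan (log2 0.05, 95% CI −0.19 to 0.30, adjusted p 0.811), so the groups overlapped. Lep, which encodes leptin, was at 0.35 (95% CI −0.06 to 0.76) and the fatty acid carrier Fabp4 at 0.19 (−0.01 to 0.39), though 3 of the 4 Fabp4 probe sets pointed the other way. Of 17 adipocyte identity genes, 0 rose and Slc2a4 alone fell (median −0.02), where 3.48% of all genes were called lower.

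Of 22 genes of fatty acid synthesis, 3 fell and 0 rose (median −0.13). Thrsp, a nuclear protein that promotes lipogenesis, went from 15435 and 13413 with chow to 8055 and 6007 with telmisartan (fell by 1.05, 95% CI −1.38 to −0.72, adjusted p 0.00491). Acaca, which encodes acetyl-CoA carboxylase, went from 4144 and 2469 to 1223 and 1224 (fell by 1.39), and Mlxipl, the glucose-sensing factor ChREBP, fell by 0.84. The median was 0.02 on telmisartan array 1 and −0.39 on array 2, with HFD at −0.41 and −0.52, and the chow arrays lay 0.53 apart. Without chow array 1 the median was 0.14, with 2 falls and 2 rises, and without chow array 2 it was −0.53, with 5 falls. The call of Mlxipl ended at every omission of an array except telmisartan array 2 (adjusted p 0.0521 to 0.109), and under median centring, as that of Thrsp did.

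Genes of the respiratory chain were not called, and 4 genes of branched-chain amino acid breakdown fell. Of 32 genes of the respiratory chain and TCA cycle, 0 were called (median −0.21; −0.13 and −0.30 on the telmisartan arrays), while HFD gave 4 falls (median −0.39). Of 19 genes of branched-chain amino acid breakdown, 4 fell and 0 rose (median −0.46, range −1.07 to 0.82). Aldh6a1, which acts late in valine breakdown, went from 3225 and 4137 to 2224 and 1441 (fell by 1.03, adjusted p 0.0189), Ivd, isovaleryl-CoA dehydrogenase, fell by 1.07 and Acadsb, a short branched-chain dehydrogenase, by 0.78. The fourth, Hibch, fell by 0.62 and was named after its value was seen. Without chow array 2, 0 of the 19 fell, without telmisartan array 2 or either HFD array 1, without either candesartan array 2, and without telmisartan array 1, 10. Under median centring 0 fell and 1 rose, and with only the 4 arrays compared 0 were called. That of Acadsb ended also without telmisartan array 2 or either HFD array (adjusted p 0.0538 to 0.0657), and that of Ivd without these or either candesartan array (0.0534 to 0.0775). The calls of Aldh6a1, Acadsb and Ivd ended under median centring, and without chow array 2 their adjusted p reached 0.0936 to 0.132.

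Of the lists of fatty acid oxidation and of lipid droplets, 1 gene each rose, a share near the 4.96% of all genes called higher. Pdk4, the kinase that spares glucose by switching off pyruvate dehydrogenase, went from 318 and 286 with chow to 698 and 1192 with telmisartan (log2 1.60, adjusted p 0.0162), 1 rise of 20 genes of fatty acid oxidation (0 falls, median −0.06). Plin2, a coat protein of lipid droplets, went from 6317 and 5389 to 12701 and 12975 (log2 1.14, adjusted p 0.00144), 1 rise of 17 genes of lipid droplets and lipolysis (0 falls, median 0.02). Of 13 PPARγ targets, 2 rose and 1 fell (median 0.10): Pdk4, the lipase inhibitor Angptl4 (1.35, adjusted p 0.0319) and Slc2a4. Pparg itself had 2883 and 3175 with chow, 2580.1 and 1856 with telmisartan, and 1660 and 1792 with HFD (−0.47, 95% CI −0.89 to −0.05, adjusted p 0.158). The call of Pdk4 ended without chow array 2 or telmisartan array 2 (0.0545 and 0.0763 as the bounds), and that of Angptl4 without either array of HFD, telmisartan or candesartan (0.0568 to 0.0805). Of 18 insulin signalling genes, 1 rose and 2 fell (median −0.19): the phosphatase Ptpn1 rose by 0.73, and Pde3b, the phosphodiesterase through which insulin restrains lipolysis, fell by 0.58, beside Slc2a4. Those of Ptpn1 and Pde3b ended without either HFD or either candesartan array, chow array 2 or telmisartan array 2, and that of Ptpn1 also without chow array 1 (0.0564 to 0.154). Of 15 cholesterol synthesis genes 0 were called (median 0.28), with chow arrays 1.12 apart; 6 rose without chow array 1 (median 0.86), and the median was −0.19 without chow array 2. Of 7 brown and beige adipocyte genes 0 were called (median −0.12).

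Endothelial genes were lower in telmisartan-treated fat. Of 19 tested, 7 fell and 0 rose, with a median of −0.58 (−0.61 and −0.49 on the telmisartan arrays, −0.53 and −0.59 with HFD). Kdr, the main receptor of vascular endothelial growth factor, had signals of 428 and 508 with chow, 208 and 231 with telmisartan, and 264 and 306 with HFD (fell by 1.09, 95% CI −1.45 to −0.73, adjusted p 0.00626). Tie1, an endothelial receptor kinase, fell by 1.02 and Egfl7, a secreted endothelial factor, by 1.08. The groups did not overlap for these 3 genes, and all 19 members lay below chow, between −1.09 and −0.14. Between 3 and 7 fell when 1 array was left out: 3 without either HFD or either candesartan array and 4 without chow array 1 or telmisartan array 2. Under median centring the median was −0.41, with 3 falls, and with only the 4 arrays compared 0 of the 19 fell.

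A few metalloproteinases and an inhibitor of them rose, and most matrix genes were not called. Timp1, an inhibitor of metalloproteinases, went from 182 and 144 with chow to 780.3 and 993 with telmisartan (log2 2.44, adjusted p 0.00126), and Mmp3, stromelysin 1, by 2.91 to 227 and 352. Mmp2, gelatinase A, was at 475 and 591 with chow, 810.03 and 1084 with telmisartan, and 1420.3 and 1341 with HFD, so both telmisartan arrays lay between chow and HFD (log2 0.82, adjusted p 0.0286). These were the 3 rises of 12 metalloproteinases and inhibitors (0 falls, median 0.37). The list held 2 rises and 3 falls without chow array 1, 5 rises without telmisartan array 1, and 2 rises without telmisartan array 2 or either array of HFD or candesartan. Among 23 genes of matrix and fibrosis, Lum, which encodes the proteoglycan lumican, was the 1 rise (1.02), with 0 falls (median 0.21). This share is near the 4.96% of all genes called higher. The call of Lum ended without chow array 2 (adjusted p 0.0506), and that of Mmp2 without chow array 1, telmisartan array 2 or either array of HFD or candesartan (0.0544 to 0.101). Of 15 progenitor and stromal genes, where 3.48% of all genes were called lower, 1 fell, the surface marker Cd34 by 0.96, and 0 rose (median −0.19). That call ended without chow array 1 (0.0502) and under median centring.

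Mesothelial genes were low on a single telmisartan array. The list of 13 had a median of −1.92 on telmisartan array 1 and −0.16 on array 2, with HFD at −0.25 and 0.24, and its summed signal was 1068 and 3609 with telmisartan against 4912 and 3794 with chow. Upk3b, a mesothelial membrane protein named after its values were seen, had 1858 and 1341 with chow, 252 and 1237 with telmisartan, and 1215 and 1610.2 with HFD. limma called 0 of the 13 (overall median −1.08), and 9 without telmisartan array 2. Of the other tissues that a fat pad can carry along, skeletal muscle had 4 tested genes with 1 rise, the calcium buffer Pvalb by 3.40, and 1 fall, Actn3 by 1.37. The call of Actn3 ended at each of the 8 omissions of an array (adjusted p 0.0601 to 0.107). The 1 red blood cell gene tested, Alas2, which starts heme synthesis, went from 755 and 675 to 238 and 204 (fell by 1.70, adjusted p 0.00685).

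Within the renin-angiotensin system, the receptor that telmisartan blocks was not called and the peptide precursor was lower. Agtr1a had signals of 422 and 411 with chow, 338 and 413 with telmisartan, and 476 and 396 with HFD (−0.16, 95% CI −0.54 to 0.23, adjusted p 0.617). Agt, which encodes angiotensinogen, had 1093 and 2482 with chow, 779.8 and 345 with telmisartan, and 391 and 366 with HFD (fell by 1.67, 95% CI −2.63 to −0.71, adjusted p 0.0466). Of 11 genes tested, 3 rose and 2 fell (median 0.24). The aminopeptidase Anpep rose by 2.08 and the lysosomal protease Ctsa by 0.81, and Enpep, which cleaves angiotensin II, fell by 0.77. The call of Agt ended without chow array 2, telmisartan array 2 or either array of HFD or candesartan (adjusted p 0.0866 to 0.187). That of Ctsa ended without either chow, either HFD or telmisartan array 2 (0.0557 to 0.0762), and that of Enpep without chow array 1 or telmisartan array 2 (0.0545 and 0.0657 as the bounds). Under median centring the calls of Agt and Enpep ended too.

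A few genes of the unfolded protein response, which meets misfolded protein in the endoplasmic reticulum, rose. The list of the unfolded protein response held 5 rises and 1 fall among 19 genes (median 0.29). Hspa5, the chaperone BiP, had signals of 4726 and 4709 with chow, 7174 and 7379 with telmisartan, and 6341 and 6387 with HFD (log2 0.63, adjusted p 0.0072), and Sdf2l1 rose by 1.28. Asns, asparagine synthetase, fell by 1.001. Hspa5 was at 0.10 (adjusted p 0.843) with its most variable probe set and was not called under median centring, as Asns was not. The list held 0 rises and 0 falls with only the 4 arrays compared, 2 rises without chow array 2 or either array of HFD or candesartan, and 3 without chow array 1. Of 19 oxidase and antioxidant genes, 5 rose and 1 fell (median 0.34), among them Hmox1, heme oxygenase 1, from 361 and 340.3 with chow to 1044 and 1670.0 with telmisartan (log2 1.91, 95% CI 1.40 to 2.43, adjusted p 0.00262), the oxidase subunit Cyba (1.55) and its partner Ncf1 (1.01). Of 17 glutathione transferases, 3 fell and 0 rose (median −0.35; 0.0035 and −0.71 on the telmisartan arrays): Gsta4, Gsta3 and Gstt3 (fell by 1.11). The call of Gstt3 ended without chow array 2 (0.0570), and 9 fell without telmisartan array 1.

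Among the remaining lists, clock genes lay lower and stress-induced transcription factors went both ways. Of 14 clock genes, 3 fell and 0 rose (median −0.59): the output factors Dbp by 0.72 and Tef by 0.64 and the repressor Bhlhe40 by 1.11. The call of Dbp ended without chow array 2 or telmisartan array 2 (adjusted p 0.0627 and 0.0820 as the bounds), that of Tef without either chow, HFD or candesartan array or telmisartan array 1 (0.0521 to 0.1004), and that of Bhlhe40 at every omission except chow array 2 (0.0507 to 0.166). All 3 ended under median centring. Of 16 immediate early genes, 2 rose and 1 fell (median −0.03): Atf3 from 149 and 161 to 630.4 and 1147 (log2 2.46) and Egr2, against Klf4, which fell by 0.67. Klf4 was not called without chow array 2, telmisartan array 2 or either HFD array (0.0615 to 0.0953). Of 19 proliferation genes, 1 rose, Pcna by 0.89, and 0 fell (median 0.53), but the chow arrays lay 2.11 apart: 17 rose without chow array 1, and without chow array 2 the median was −0.57, with 2 falls and no call for Pcna (0.0532). Pcna was also not called without telmisartan array 2 (0.0588).

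With only the 4 arrays compared, several further lists held fewer calls. The lipid-laden macrophage list then held 8 rises, the CD11c and M1 list 1, the M2 and resident list 2 rises and 2 falls, the B cell list 1 rise and the T and NK cell list 1. The fatty acid synthesis list held 1 fall, the renin-angiotensin list 1 rise and 0 falls, the oxidase and antioxidant list 2 rises and 0 falls, and the clock list 0 calls.

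**Figure D3:**
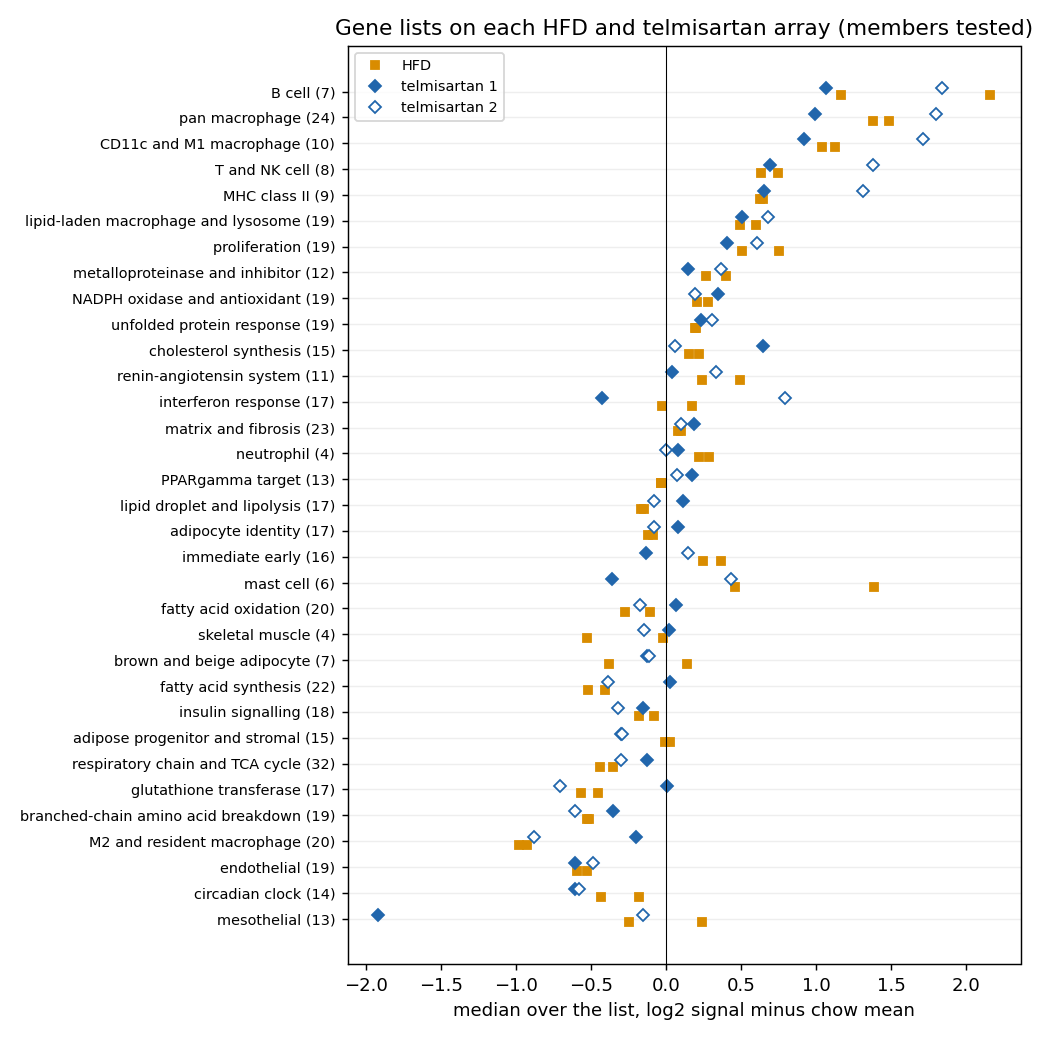
Median over each gene list of the log2 signal minus the chow mean (horizontal axis), with 1 symbol per HFD or telmisartan array and the number of tested genes in brackets. The pan macrophage, lipid-laden macrophage, B cell, and T and NK cell lists lie right of 0 on all 4 arrays, and the mesothelial list lies at −1.92 on telmisartan array 1 only.

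Genes called under telmisartan but not in HFD against chow numbered 326, 132 higher and 194 lower. A call in 1 comparison and not in the other is no difference: telmisartan against HFD, tested in the same limma fit, gave 0 calls among 11232 genes (0%), with a smallest adjusted p of 0.766 and 696 genes at an unadjusted p under 0.05. Many of the 326 also differed in HFD against chow by a looser standard: 133 had an adjusted p under 0.1 there, 227 an unadjusted p under 0.05, and 6 pointed the other way. The median of the 132 rises was 0.71 with telmisartan and 0.44 with HFD, and that of the 194 falls −0.86 and −0.51. The falls were dimmer genes, with a median signal of 251.3, against 1217 for the rises. Their median difference from chow was −0.82 on telmisartan array 1 and −0.92 on array 2. The median signal of telmisartan array 1 was the lowest of the 8, and a link with these falls was not tested. Under median centring 24 of the 194 falls and 75 of the 132 rises were still called. With a separate fit for each comparison, on its own 4 arrays only, 5 genes were called under telmisartan and not under HFD. The telmisartan fit then called 198 genes, 193 of them also called with HFD, while 996 genes were called with HFD only. The HFD pair lay closer together (SD of log2 differences 0.27, against 0.48 for telmisartan), and its part in this count was not tested.

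The genes with the largest telmisartan minus HFD difference in this set are described next; they were ranked on that difference, so its size is a description. Ccl8, a chemokine that draws monocytes, had signals of 2566 and 2216 with chow, 2191 and 1532 with HFD, 4554 and 8192 with telmisartan, and 2712 and 1594 with candesartan. Its rise over chow was 1.36 (95% CI 0.62 to 2.10, adjusted p 0.0379), and both HFD arrays lay below both chow arrays. Il1r2, the decoy receptor of interleukin 1, had 23.9 and 27.9 with chow, 56.4 and 41.9 with HFD, 106 and 86.6 with telmisartan (log2 1.89, 95% CI 1.22 to 2.57, adjusted p 0.00812), and 56.4 and 55.7 with candesartan. Zbp1, a sensor of nucleic acids, had 111 and 136 with chow, 206 and 145 with HFD, 282 and 382 with telmisartan (log2 1.41, adjusted p 0.01), and 220 and 181 with candesartan. Fcgr2b, the inhibitory receptor for IgG, had 666 and 909 with chow, 1149 and 872 with HFD, 1358 and 2066 with telmisartan (log2 1.11, adjusted p 0.0260), and 911 and 1007 with candesartan. The channel gene Calhm6 rose by 2.69 and the immunoglobulin light chain segment Igkv9-120 by 2.64; probe sets for such segments can share signal with near-identical family members. The calls of Il1r2 and Zbp1 held at each of the 8 omissions of an array, but that of Il1r2 ended with only the 4 arrays compared (adjusted p 0.0572) and that of Zbp1 without the filter (0.0743) and with its most variable probe set (0.182). That of Ccl8 ended without either chow or HFD array or telmisartan array 2 (log2 0.93, adjusted p 0.128, without the last), as that of Igkv9-120 did (1.86, 0.161). That of Calhm6 ended without either chow array or telmisartan array 2 (adjusted p 0.0524 to 0.0764), and that of Fcgr2b without chow array 1, telmisartan array 2 or either candesartan array (0.0550 to 0.0970).

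Adarb1, which encodes an RNA-editing deaminase, had signals of 102 and 97.9 with chow, 81.7 and 105 with HFD, 14.7 and 31.2 with telmisartan, and 53.7 and 56.2 with candesartan. With telmisartan it fell by 2.22 against chow (95% CI −3.07 to −1.38, adjusted p 0.00982). Cd163l1, a scavenger receptor of the CD163 family, had 99.8 and 81.2 with chow, 63.9 and 79.9 with HFD, 24.5 and 29.9 with telmisartan, and 108 and 107 with candesartan (fell by 1.73, adjusted p 0.00714). For both, the telmisartan arrays lay below every other array of the series. Kirrel3, an adhesion molecule, fell by 1.81 and Ano1, a chloride channel, by 1.69. Kirrel3 had signals of 74.8 and 68.5 with chow and 27.0 and 48.4 with candesartan. Ano1 had 292 and 292 with chow and 101 and 210 with candesartan. Zbed6, a transcription factor, had 133 and 159.5 with chow, 185 and 167 with HFD, 80.1 and 86.0 with telmisartan (fell by 0.81, adjusted p 0.0410), and 90.8 and 108 with candesartan. For Adarb1, Kirrel3, Ano1 and Zbed6, unlike Cd163l1, both candesartan arrays also lay below both chow arrays. Candesartan against chow was not tested. The calls of Adarb1 and Cd163l1 held at each of the 8 omissions of an array and under median centring, but not with only the 4 arrays compared. That of Kirrel3 ended without either chow or HFD array (adjusted p 0.0506 to 0.0832), that of Ano1 without either chow array (0.0666 and 0.0821), and that of Zbed6 at each of the 8 omissions (0.0581 to 0.162) and under median centring.

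**Figure D4:**
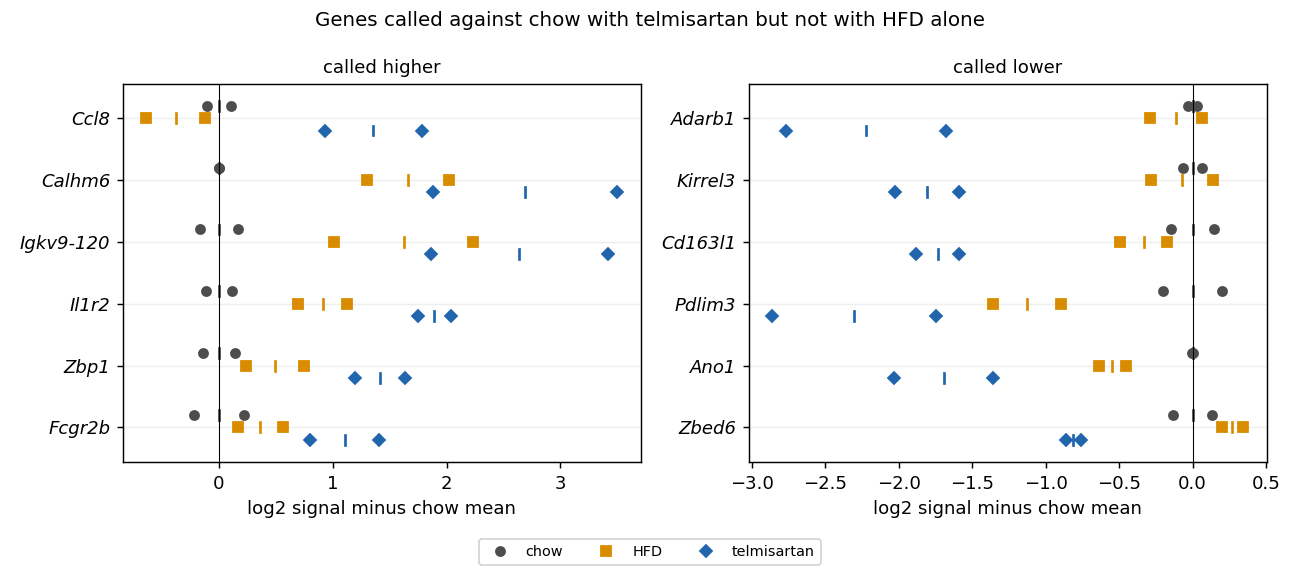
Log2 signal minus the chow mean (horizontal axis) of the genes called under telmisartan but not in HFD against chow, 6 higher and 6 lower, with 1 symbol per array and a bar at each group mean. The telmisartan arrays of Ccl8 lie above chow while the HFD arrays lie below it, and those of Adarb1 lie below both chow and both HFD arrays.

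Diet changes that were not called under telmisartan numbered 287, 153 rises and 134 falls. Of these, 150 had an adjusted p under 0.1 in telmisartan against chow and 236 an unadjusted p under 0.05. The rises had a median of 1.02 with HFD and 0.68 with telmisartan, where array 1 (0.45) lay below array 2 (0.90). The falls had a median of −0.84 with HFD and −0.61 with telmisartan (−0.42 and −0.75 on arrays 1 and 2). The count depends on the telmisartan pair, with 1158 such genes without telmisartan array 2, and on the HFD pair, with 4 without HFD array 2.

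The falls with the largest return towards chow held several macrophage genes; they were ranked on the telmisartan minus HFD difference, which is a description. Ms4a8a, a membrane protein of macrophages, had signals of 256 and 199 with chow, 94.8 and 61.3 with HFD, and 210.02 and 183 with telmisartan. It lay −0.20 from chow (95% CI −0.77 to 0.36, adjusted p 0.661), against −1.56 with HFD (adjusted p 0.00841). Retnla, which encodes FIZZ1, had 10882 and 11626 with chow, 4699.7 and 3004 with HFD, and 8221 and 6351 with telmisartan (−0.64, 95% CI −1.16 to −0.12, adjusted p 0.124). Cd209d, a C-type lectin, had 495 and 412 with chow, 96.0 and 66.5 with HFD, and 279 and 108 with telmisartan (−1.38, adjusted p 0.0667), so array 2 stayed near HFD. Cd163, a scavenger receptor, was not among the ranked falls and is given as a gene named always. It had 777 and 1291 with chow, 437 and 222 with HFD, and 587 and 475 with telmisartan (−0.92, 95% CI −1.69 to −0.16, adjusted p 0.130). Ropn1l had 167 and 125 with chow, 79.7 and 76.8 with HFD, and 145 and 148 with telmisartan, inside the chow range. Ptgds, a prostaglandin D synthase, was at −0.70 (adjusted p 0.348) and Upb1, an enzyme of pyrimidine breakdown, at −0.47 (0.417).

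Among the rises with the largest return was Cpa3, the carboxypeptidase of mast cells, with signals of 108 and 108 with chow, 258 and 425 with HFD, and 104 and 279 with telmisartan (0.65, adjusted p 0.372). The telmisartan arrays differed here. The summed signal of the 10 mast cell genes measured was 697 and 1285 with telmisartan, 887 and 968 with chow and 1232 and 1955 with HFD. Mamdc2, a matrix protein, had 143 and 154 with chow, 248 and 349 with HFD, and 175 and 142 with telmisartan (0.08, 95% CI −0.46 to 0.63, adjusted p 0.864), overlapping chow. Rgs18, a regulator of G protein signalling in blood cells, was at 0.75 (adjusted p 0.145) and the formin Fmn1 at 1.08 (0.0588). Pianp was at 0.96 and Eya4, a transcriptional coactivator, at 0.74, both with telmisartan array 1 within the chow range. For the 12 ranked falls and rises the telmisartan minus HFD difference had a limma adjusted p of 0.766.

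**Figure D5:**
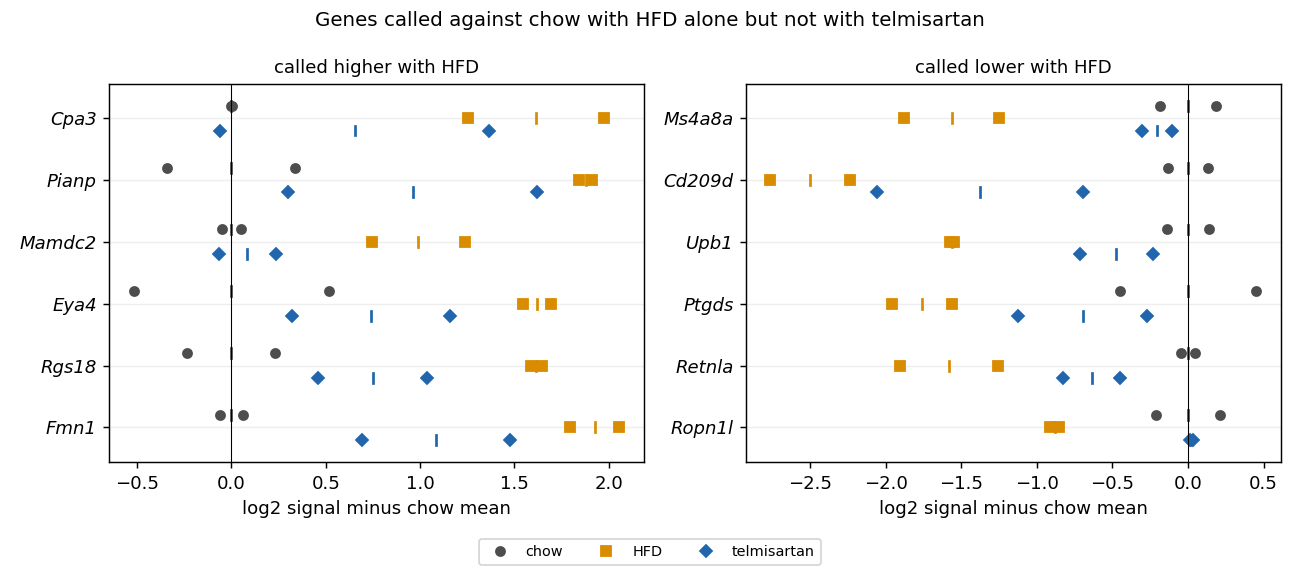
Log2 signal minus the chow mean (horizontal axis) of the genes called in HFD against chow but not under telmisartan, 6 rises and 6 falls, with 1 symbol per array and a bar at each group mean. The telmisartan arrays of Ms4a8a, Retnla and Ropn1l lie above both HFD arrays, and those of Cd209d lie apart from each other.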

How the data were processed

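The authors scanned 1-colour Affymetrix GeneChip mouse arrays, 1 per mouse, and made a linear signal intensity per probe set with the GeneChip Analysis Suite software, per the labels; how signals were summarised or scaled is not stated there. The deposited table held 45101 probe sets and 0 negative values. Each array was scaled so that all shared a 2%-trimmed mean. Before scaling these means were up to 1.48 times apart, between chow array 1 and telmisartan array 2. Both telmisartan arrays (213.5 and 178.4) lay below both chow arrays (264.6 and 233.7). Signals under the 20th percentile (6.69) were raised to it, and values were put on a log2 scale. The 22519 probe sets whose mean reached the 50th percentile were kept, and for each gene the brightest with 1 symbol was used, which left 11232 genes.

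Groups came from the sample titles. limma 3.58.1 in R 4.3.3 fitted 4 group means over the 8 arrays, with 4 residual degrees of freedom and an intensity trend, and its two-sided tests were adjusted over all genes; the call was an adjusted p under 0.05. Intervals are 95% confidence intervals from this fit, with a median reach of 0.44 to each side for telmisartan minus chow. The 2 arrays per group limit the precision, and an exact permutation test of 2 against 2 could not reach 0.05. The fit was also run on simulated arrays with independent noise. Such arrays lack differences shared by many genes of an array, so they cannot show how the calls hold under these. A list is described by its counts and its median log2 difference.

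The rule for named genes takes the 8 called rises and 8 called falls with the largest change whose arrays do not overlap, without clone names. It adds the 6 in each direction that remained with the largest smaller change, the 6 called with telmisartan only and the 6 called with HFD only that have the largest telmisartan minus HFD difference, the 3 members of each list with the smallest p, and 13 genes named always (Adgre1, Itgax, Ccl2, Mrc1, Retnla, Cd163, Adipoq, Lep, Pparg, Slc2a4, Agt, Agtr1a and Fabp4). The members and the 35 gene lists were chosen with earlier results of these data known. Alternatives were 3 other scalings, 2 other floors, 2 other filters, 2 other variance models, the arrays compared only, a replicate block, 2 other choices of probe set and the omission of each array.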

Additional observations from a re-analysis of the deposited data

Results flagged for a closer look

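Ccl8 and Zbed6 drew attention because both telmisartan arrays lay on one side of both chow arrays and both HFD arrays on the other. The telmisartan minus HFD difference was 1.74 on the log2 scale for Ccl8, with telmisartan 1.36 above chow and HFD 0.38 below it (−0.38). For Zbed6 it was −1.08, with telmisartan at −0.81 and HFD at 0.27. limma's test of that difference gave an adjusted p of 0.766 for both genes, so a difference was not shown. Groups of 2 arrays were too small to be searched for outlying arrays.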

How the results depend on the processing

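With 2 arrays per group, counts of calls moved with each pair's spread, and the cause was not tested. Of the 89 named genes called in telmisartan against chow, 49 were called at each of the 8 omissions of an array, and 37 of these also with only the arrays compared; 0 changed direction while called under any alternative. Over the omissions, the rises numbered 353 to 925, the falls 172 to 758, the genes called in both comparisons with chow 161 to 1169, those called with telmisartan only 121 to 514 and those called with HFD only 4 to 1158; telmisartan against HFD stayed at 0 calls.

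Median centring gave 83 falls and 141 genes called with HFD only. No scaling gave 326 rises, 1719 falls, 1488 genes called with telmisartan only and 170 with HFD only. Without the filter, where 18193 genes were tested, there were 210 rises, 122 falls, 142 genes called in both, 190 with telmisartan only and 32 with HFD only, and telmisartan against HFD gave 4 calls (Cartpt, Cckbr, Gm17619 and Pate14, with no signal above 13.4 on any array). Of the 89 named calls, 59 ended without the filter and 47 with only the arrays of the groups compared. Without the intensity trend 174 genes were called with HFD only. With only the arrays of the groups compared there were 167 rises and 31 falls, 193 genes called in both, 5 with telmisartan only and 996 with HFD only.

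The replicate numbers are not said to pair mice: the log2 differences between arrays 1 and 2 correlated at 0.167 between telmisartan and chow, 0.0838 between HFD and chow and 0.0981 between telmisartan and HFD. With the replicate block, 470 genes were called with HFD only and 1220 in telmisartan against chow, and 0 named calls were lost. The arrays give no counts of reads, and values near the floor have no order.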
